A study of Mus musculus with 8 samples.

Results

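The p53 axis and the Cdk inhibitor genes were followed through the N6-methyladenosine (m6A) peaks of mouse primary T cells. m6A is a methylated adenosine in RNA, mapped here by sequencing RNA fragments that an antibody against it had pulled down, next to input RNA. The cells were grown in medium with serum and were either controls or treated for 24 h with PTC, a name that the labels leave unexplained. No genotype, strain or age of the mice is given. Each condition had 2 immunoprecipitated and 2 input samples, 8 samples in all, and is represented by 1 deposited peak list. The genes were chosen by name, as Trp53, Mdm2, Mdm4, Cdkn1a, Cdkn1b, Cdkn2a, Cdkn2c and Cdkn2d, which makes 8 genes next to the 12413 genes of the lists. Rows with these names were found for 7 of them, 18 of the 29586 control peaks and 14 of the 23368 PTC peaks. No row used here names Cdkn2a, by symbol or by Ensembl identifier, so it is not analysed further. With 1 list per condition there is no spread between samples and no test between conditions, and a difference between the lists below has no replicate check.

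The transcription factor p53, the product of Trp53, halts the cell cycle or starts cell death after DNA damage and other stress. Its level is held down by Mdm2, a ubiquitin ligase that marks it for degradation, and by the related protein Mdm4, and Mdm2 is itself a target gene of p53. Cdk inhibitors act further down and come in separate families: the products of Cdkn1a (a p53 target gene) and Cdkn1b bind a broad range of cyclin-Cdk complexes, while those of Cdkn2a, Cdkn2c and Cdkn2d bind Cdk4 and Cdk6 and so keep the retinoblastoma protein active. Cdkn2a also encodes Arf, which inhibits Mdm2, and is known as a gene that the Polycomb protein Bmi1 represses. In T cells Cdkn1b is a known brake on leaving quiescence. m6A is known to mark many transcripts near stop codons and in 3' UTRs and to change their stability and translation.

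The strict form of the m6A consensus, GGACT, was found at 6 places in the peaks of these genes, searched on the transcript strand only. All 6 are shown because they are the places in the peaks with the best-known m6A consensus. They are written 5' to 3' with the motif in capitals, and each name gives the gene, the region and the lists whose peaks hold the site.
Cdkn2c 5' UTR, first site, both lists: tttgggggagtcGGACTacaaaagaaact
Cdkn2c 5' UTR, second site, both lists: aagaagttggcgGGACTggctgcgcccgg
Cdkn1b coding sequence, both lists: agaactaacccgGGACTtggagaagcact
Cdkn1b 3' UTR, PTC list only: ctgcagaccccaGGACTgctggcagatta
Mdm2 3' UTR, both lists: ctccgcttggaaGGACTttggaagtgtat
Mdm4 3' UTR, control list only: atgtctagccctGGACTttagtcatttcc
On GRCm38, the A of the motif lay at 109666487 and 109666292 of chromosome 4 for Cdkn2c (minus strand). For Cdkn1b it lay at 134921050 and 134922159 of chromosome 6 (plus strand), for Mdm2 at 117689941 of chromosome 10 (minus strand) and for Mdm4 at 132989181 of chromosome 1 (minus strand).

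Trp53, Cdkn1a and Cdkn2d had no GGACT in their peaks. For these the wider consensus DRACH (any base but C, then a purine, then AC, then any base but G), of which GGACT is 1 form, is shown at 5 of the 9 sites that peaks of both lists held. They were picked to show 1 or 2 sites per gene. For the second Trp53 site the printed stretch crosses the junction of the exon blocks, and the motif itself lies before the junction.
Trp53 5' UTR: ttcagttcattgGGACCatcctggctgta
Trp53 5' UTR, across the junction of the peak's exon blocks: acgcttctccgaAGACTggatgactgcca
Cdkn1a coding sequence: ccgagaacggtgGAACTttgacttcgtca
Cdkn2d coding sequence, first site: caccgggttcctGGACAccctgaaggttc
Cdkn2d coding sequence, second site: tgtcaatgccctGGACAgcactgggtcgc
Their A lay at 69580414 and 69580511 of chromosome 11 for Trp53 (plus strand), at 29098553 of chromosome 17 for Cdkn1a (plus strand) and at 21289211 and 21289163 of chromosome 9 for Cdkn2d (minus strand). A match to a motif is a description of the sequence under a peak. The lists do not resolve single modified bases.

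All 7 genes with rows were in both lists, and in each of them at least 1 control peak overlapped a PTC peak. Of all genes with a peak in either list 79.2% were in both, and of those in both 94.7% had an overlapping pair, so counts like these are common. Mdm2, Mdm4, Cdkn1a and Cdkn1b held more control than PTC peaks, Trp53 and Cdkn2c held the same number, and Cdkn2d held more PTC peaks. That is 4 genes of 7 with more control peaks against 41.6% of all genes in both lists, 2 with equal numbers against 42.4%, and 1 with more PTC peaks against 16.0%. Counting only peaks with a fold of at least 4, the genes with more control peaks were 1 in place of 4. With a −log10 false discovery rate of at least 5 they were 3, and Mdm2 held 2 peaks in each list. Peaks covered 34.2% of the exonic bases of Mdm2 in control and 40.6% in PTC, against its order of peak numbers. In Mdm4, Cdkn1a and Cdkn1b the covered share was higher in control. In bulk RNA, fewer cells carrying a transcript and less of it per cell cannot be told apart, and neither can be told apart from less m6A where only the presence of a peak is known.

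**Figure D1:**
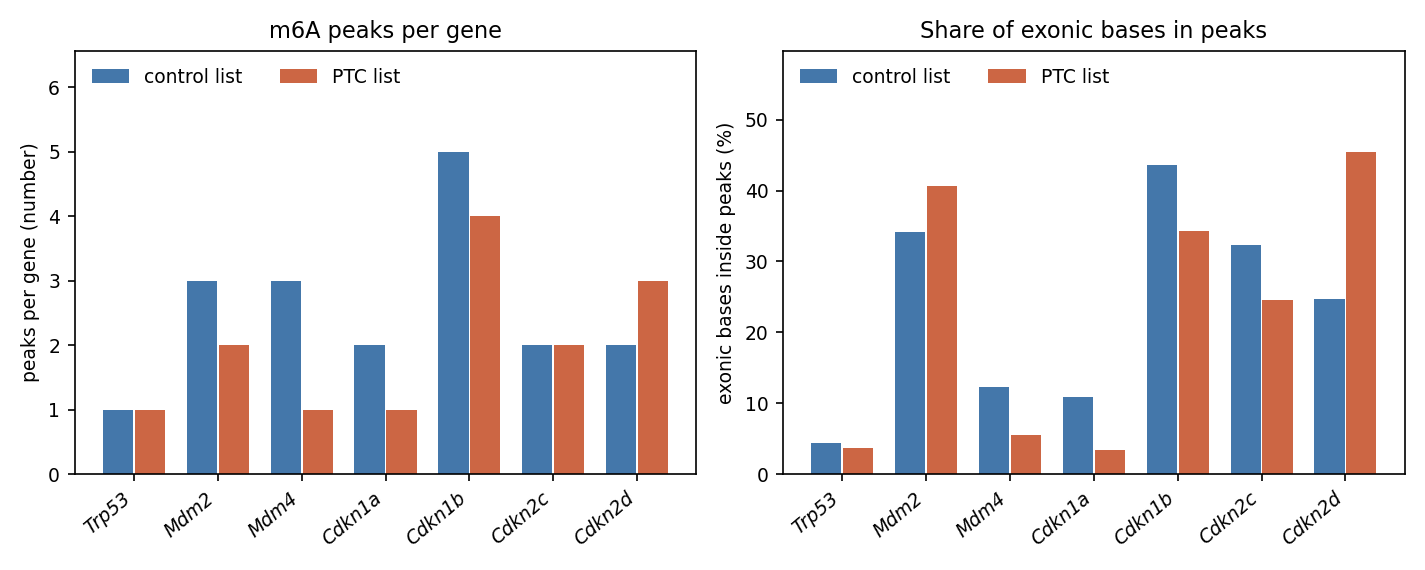
Number of m6A peaks per gene (left) and percent of the gene's annotated exonic bases that lie inside peaks (right), for the 7 genes with rows, with 1 bar per deposited list and no error bars because each condition has 1 list. Cdkn1b held the most peaks, 5 control and 4 PTC, and Cdkn2d was the gene with more PTC peaks, 3 against 2.

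Trp53 (chromosome 11, 69580359 to 69591873, plus strand) held 1 weak peak in each list, at the 5' end of the transcript. The control peak had a fold enrichment of 4.20 over input and a −log10 false discovery rate (FDR) of 3.97, both as the authors give them. In the PTC list these were 4.33 and 2.49. Within their own lists these folds stood at the 57.5th and 58.8th percentile and the FDR values at the 36.7th and 9.56th. The enrichment was thus near the middle of either list and the FDR in its weaker part. Along the spliced transcript, with 0 at the last base of the stop codon and negative positions upstream, the peak spanned -1329 to -1149 in control and -1299 to -1149 in PTC. The control peak covered 157 nt of the 5' UTR and the first 24 nt of coding sequence, and the PTC peak 127 nt and the same 24 nt. All 3 DRACH sites of the control peak, 2 of them shown above, were also in the PTC peak. Neither list held a Trp53 peak near the stop codon or in the 3' UTR.

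Mdm2 (chromosome 10, 117688875 to 117710758, minus strand) had the strongest main peak among the 7 genes, by FDR, in each list. Its main peak crossed the stop codon, from -653 to 528 in control and from -653 to 618 in PTC, and covered 44.5% of the coding sequence in each list. It had a fold of 7.23 and a −log10 FDR of 145 in the control list, at the 99.3rd percentile of that list, and a fold of 5.17 and 172 in the PTC list, at the 98.8th. A further 105 nt of the control peak and 224 nt of the PTC peak lay outside the transcript used for these positions. The GGACT site shown above stood at position 269, inside both peaks. A second Mdm2 peak lay further down the 3' UTR, from 767 to 1006 in control (fold 6.06, −log10 FDR 45.3) and from 707 to 1275 in PTC (6.46 and 58.4). It was 240 nt wide in control and 569 nt in PTC. The third control peak was of another kind, spread over 3 exon blocks further upstream, with a fold of 2.28 and a −log10 FDR of 3.44. It had 177 nt in the coding sequence (-1247 to -1071) and 33 nt outside the transcript used for these positions. It had no PTC partner, and 417 nt separated it from the nearest PTC peak. In all, 87.9% of the bases in Mdm2 control peaks were also in PTC peaks, and 73.9% the other way.

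Mdm4 (chromosome 1, 132959484 to 133030561, minus strand), the partner of Mdm2, showed the same placement of its main peak, across the stop codon. In control it reached from -615 to 853, with a fold of 5.15 and a −log10 p-value of 104, and in PTC from -585 to 224, with 4.62 and 135. Both therefore began within 30 nt of each other in the coding sequence, and the control peak reached further into the 3' UTR. These peaks stood at the 98.4th and 97.8th percentile of FDR in their lists. They held 24 and 13 DRACH sites and no GGACT, although 79.1% of control and 64.7% of PTC peaks of like length (within 20%) held at least 1 GGACT. The remaining 2 control peaks of Mdm4 lay far down the 3' UTR, from 2410 to 2650 (fold 2.27, −log10 FDR 7.55) and from 3578 to 3698 (2.06 and 5.43), and had no PTC partner. The first of them held the GGACT site shown above. As a result 44.2% of the bases in Mdm4 control peaks were in PTC peaks, while the single PTC peak lay wholly inside a control peak.

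Cdkn1a (chromosome 17, 29090976 to 29100727, plus strand), the Cdk inhibitor that p53 induces, carried peaks of low fold. Its main control peak lay in the coding sequence from -397 to -129, with a fold of 1.98 and a −log10 FDR of 14.5. Inside it lay the PTC peak, from -338 to -218, with a fold of 1.34 and a −log10 FDR of 3.78. A fold of 1.34 was among the lowest of the PTC list, at the 0.569th percentile, and 1.98 stood at the 11.0th percentile of the control list. The PTC peak was 121 nt wide against 269 nt in control and covered 25.2% of the coding sequence against 56.0%. The other control peak was weak (fold 1.69, −log10 FDR 2.46), had 2 exon blocks with its midpoint in the 5' UTR, and was without a PTC partner. It overlapped an exon of the opposite-strand gene model AC167363.2. How strand was used in the authors' counting is not stated, so reads of this peak cannot be assigned with certainty.

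Cdkn1b (chromosome 6, 134920401 to 134925513, plus strand) had the most peaks, spread over the whole transcript. The main peak took in the entire coding sequence in both lists. In control it spanned -843 to 26 (fold 2.56, −log10 FDR 47.4). In PTC it spanned -813 to 146 (2.41 and 55.3). Of the control peak 250 nt were 5' UTR and 594 nt coding sequence, and of the PTC peak 220 nt and the same 594 nt. The GGACT site in the coding sequence (position -463) was in both peaks, and the site at position 85 of the 3' UTR was only in the PTC peak, which reached further.

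In the Cdkn1b 3' UTR the lists agreed at some places and not at others. Peaks at 1283 to 1493 in control (fold 3.67, −log10 FDR 9.24) and 1223 to 1463 in PTC (2.77 and 5.74) overlapped. So did those at 2631 to 3110 in control (2.85 and 15.0) and 2840 to 3020 in PTC (1.86 and 4.47). Beyond the end of the main peak, a control peak at 415 to 655 (2.68 and 7.08) and a PTC peak at 205 to 385 (3.09 and 5.26) lay next to each other without touching, 29 nt apart. The control peak at 2241 to 2421 (2.00 and 7.11) had no partner either, with 418 nt to the nearest PTC peak. Fold was near or below the middle of the lists throughout, and the highest Cdkn1b value was at the 50.2nd percentile in control and the 40.1st in PTC.

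Cdkn2c (chromosome 4, 109660876 to 109667189, minus strand), an inhibitor of Cdk4 and Cdk6, held 2 peaks in each list, and each PTC peak lay wholly inside a control peak. The first lay in the 5' UTR, far upstream of the start codon, from -1560 to -1053 in control and from -1471 to -1083 in PTC. It had the highest fold enrichment among the 18 control and 14 PTC peaks of these genes, 23.9 in control and 22.6 in PTC, at the 99.1st and 98.8th percentile of the lists. Its −log10 FDR was moderate, 6.14 and 5.21, at the 54.0th and 41.8th percentile. Both GGACT sites shown above lay inside it in both lists, at -1395 and -1200. Among control peaks of like length 48.1% held a GGACT, and among PTC peaks 42.7%. The second peak lay in the coding sequence, from -403 to -45 in control (fold 4.82, −log10 FDR 7.64) and from -373 to -104 in PTC (4.19 and 10.9), and covered 70.8% and 53.3% of it.

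Cdkn2d (chromosome 9, 21288410 to 21291407, minus strand), of the same inhibitor family, had weak peaks and was the gene with more PTC than control peaks. Peaks around the start codon overlapped, from -572 to -364 in control (fold 5.73, −log10 FDR 3.73) and from -602 to -394 in PTC (2.15 and 5.19). Peaks in the coding sequence also overlapped, from -357 to -179 in control (2.00 and 2.58) and from -298 to -1 in PTC (2.13 and 3.51). The third PTC peak, in the 3' UTR from 147 to 355 (3.95 and 3.46), had no control partner and was 325 nt from the nearest control peak. Only 1 of these 5 peaks, the PTC peak at the start codon, reached a −log10 FDR of 5.

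**Figure D2:**
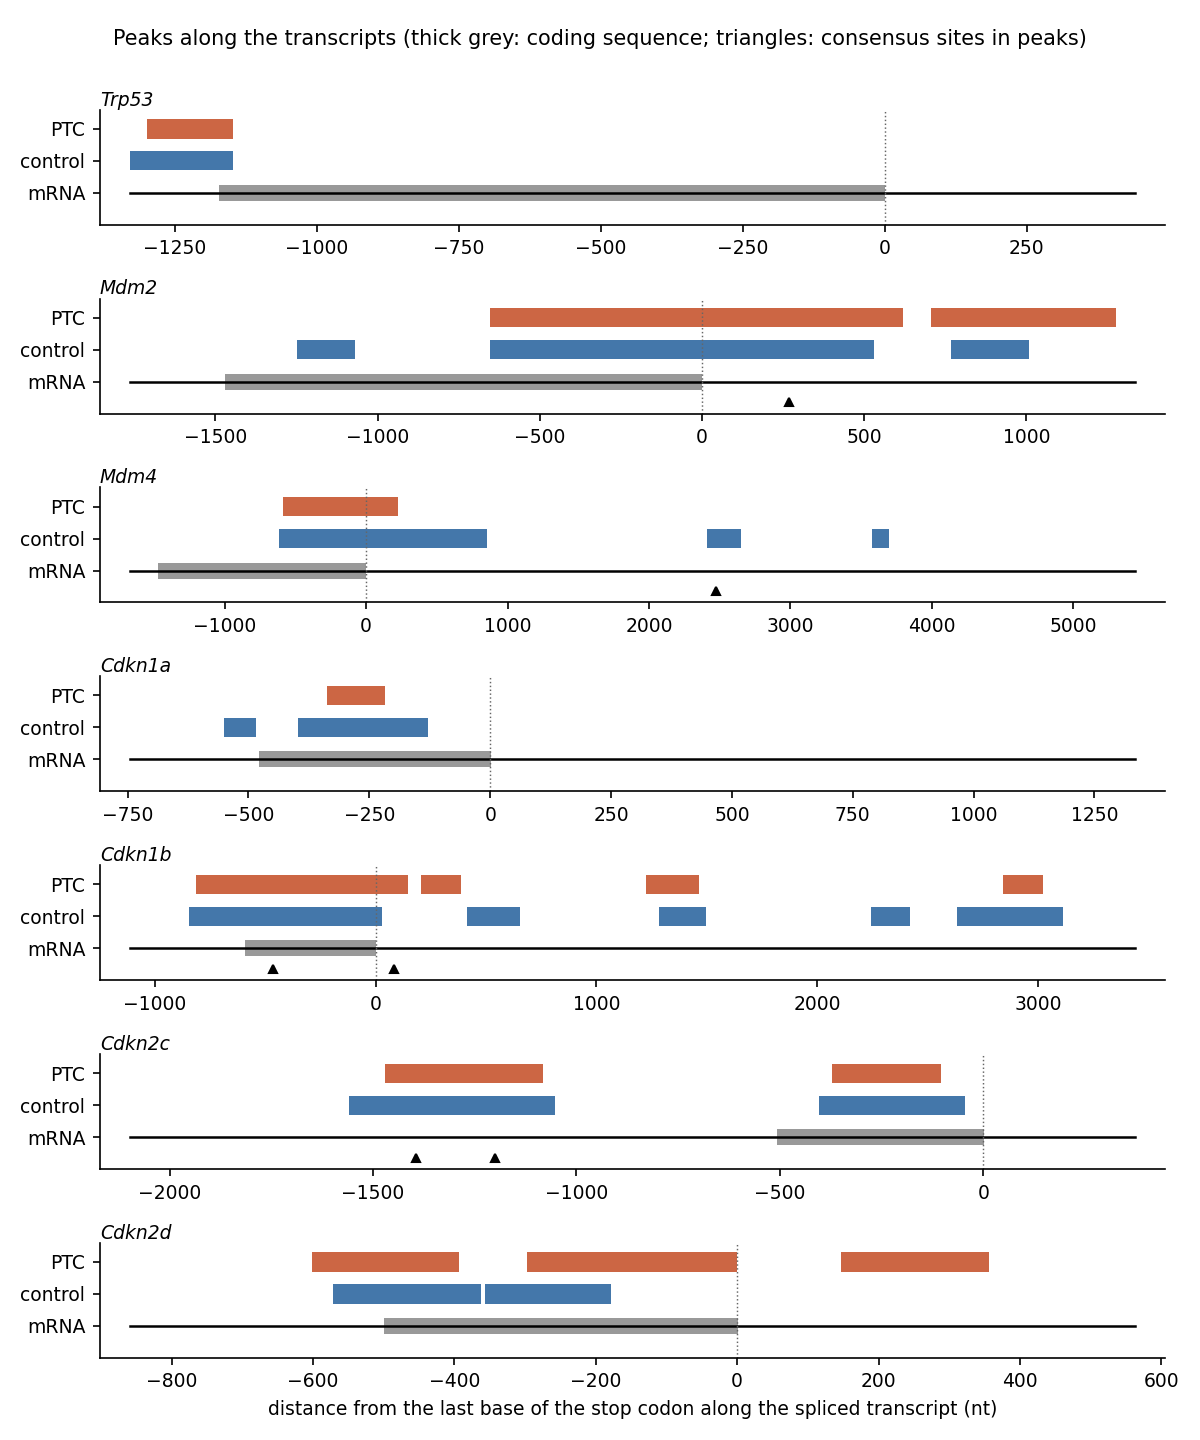
Peaks of the control and PTC lists along 1 spliced protein-coding transcript per gene, in nt from the last base of the stop codon (dotted line), with coding sequence in grey and triangles at the strict consensus sites inside peaks. Each gene has its own scale. The main peaks of Mdm2, Mdm4 and Cdkn1b cross the stop codon in both lists, the only Trp53 peak lies at the 5' end, and the first Cdkn2c peak lies in the 5' UTR.

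Set side by side, the genes differed in the FDR and in the fold of their peaks. The main peaks of Mdm2, Mdm4 and Cdkn1b had a −log10 FDR of 47.4 to 145 in control and 55.3 to 172 in PTC. Counting each gene by its strongest peak, Mdm2 stood at the 98.3rd percentile of control genes, Mdm4 at the 96.1st and Cdkn1b at the 84.7th. Cdkn1a stood at the 55.1st, Cdkn2c at the 38.6th, Trp53 at the 20.1st and Cdkn2d at the 17.6th. In the PTC list the percentiles were 97.5 for Mdm2, 95.7 for Mdm4, 82.8 for Cdkn1b, 44.5 for Cdkn2c, 25.3 for Cdkn2d, 16.7 for Cdkn1a and 5.34 for Trp53. The upper 3 genes thus kept their order, and Cdkn1a and Trp53 were lower in the PTC order. Ranks from lists of unequal length do not show a change. Of the 18 control peaks 13 had a −log10 FDR of 5 or more, against 53.4% of all control peaks, and of the 14 PTC peaks 9 did, against 59.8%. Fold was 4 or more in 7 control peaks, against 45.0%, and in 6 PTC peaks, against 45.2%. Counting only peaks with a −log10 FDR of 5 or more, 6 of the genes were still listed, 4 of them (Mdm2, Mdm4, Cdkn1b and Cdkn2c) in both lists, against 79.5% of all genes so listed. Cdkn1a was then in control alone and Cdkn2d in PTC alone, and Trp53 dropped out. Counting only a fold of 4 or more, 5 were listed and 4 (Trp53, Mdm2, Mdm4 and Cdkn2c) were in both, against 59.4%.

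**Figure D3:**
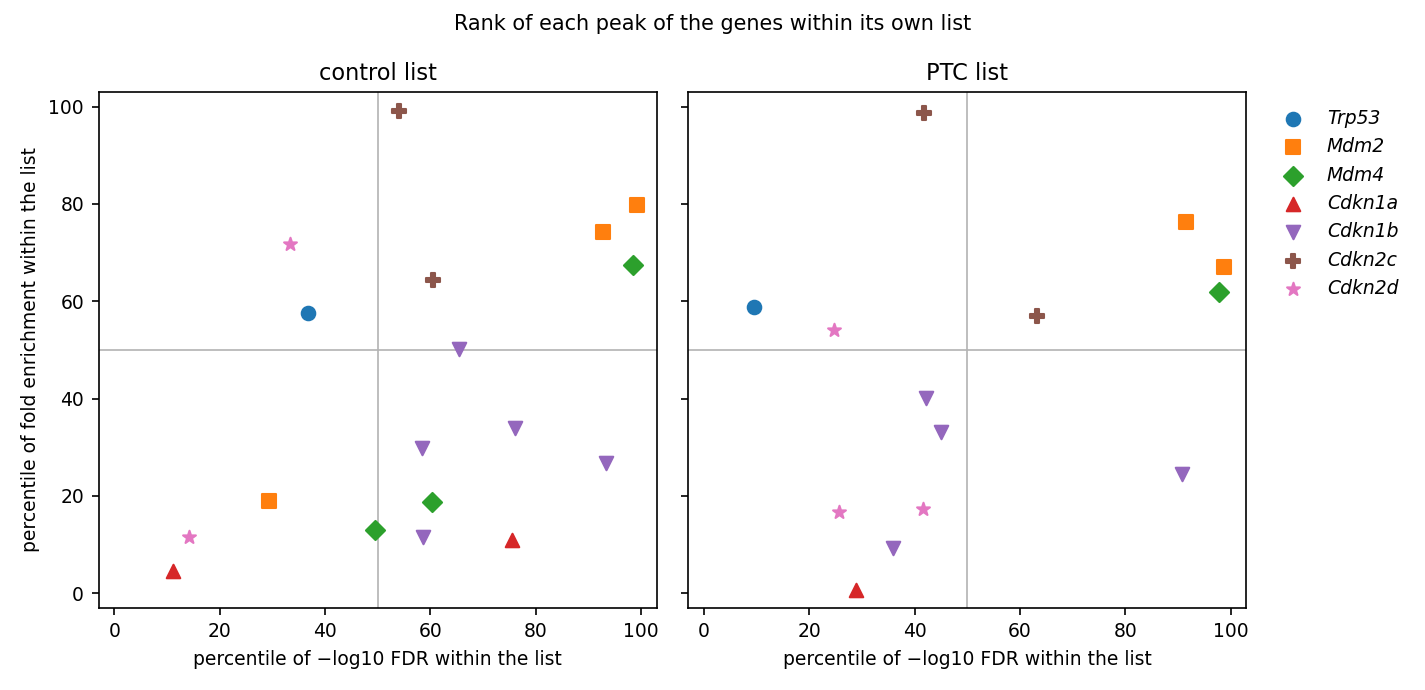
Percentile of fold enrichment against percentile of −log10 FDR for each peak of the 7 genes, ranked within its own list (18 control peaks left, 14 PTC peaks right; grey lines mark the 50th percentile). Mdm2 and Mdm4 main peaks sit high on both axes, Cdkn1b and Cdkn1a peaks have low fold, and the Cdkn2c 5' UTR peak has a very high fold at a middling FDR.

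Of the control peaks 12 of 18 were overlapped by a PTC peak, 66.7% (exact Clopper-Pearson 95% interval 41.0 to 86.7%, for counting error only), and of the PTC peaks 12 of 14 by a control peak, 85.7% (57.2 to 98.2%). The shares over whole lists were 60.2% and 78.8%, inside these intervals. The intervals take peaks as independent, although several come from the same gene, so they are no test against the whole lists. The 6 control peaks without a partner belonged to Mdm4 and Cdkn1b with 2 each and Mdm2 and Cdkn1a with 1 each, and the 2 PTC peaks to Cdkn1b and Cdkn2d. No main peak was among them. The −log10 FDR of these 8 peaks did not exceed 7.55.

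By midpoint, 3 control peaks lay in the 5' UTR, 7 in coding sequence and 8 in the 3' UTR, against 5.93%, 42.2% and 45.9% of control peaks in protein-coding genes. For PTC the numbers were 2, 7 and 5, against 5.80%, 41.0% and 49.5%. The 5' UTR midpoints were those of Trp53 and Cdkn2c in both lists and of the weak Cdkn1a peak in control. A stop codon with all its bases was inside 3 peaks in each list, those of Mdm2, Mdm4 and Cdkn1b, against 22.0% of control and 26.9% of PTC peaks in protein-coding genes. Among peaks of at least 800 nt, as these 6 are, 62.2% of control and 62.9% of PTC peaks held one, so the wide peaks of these genes were placed as most wide peaks of the lists were. That width was chosen after the peaks were seen.

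DRACH was present in all 18 control and all 14 PTC peaks, as in 97.4% and 97.8% of all peaks, and so does not set these genes apart. There were 17.4 DRACH sites per 1000 nt of control peaks and 19.2 per 1000 nt of PTC peaks, against 21.2 and 21.9 over the whole lists. Over whole peaks, GGACT was in 4 control peaks and 3 PTC peaks, against 34.5% and 37.5% of all peaks. None of these peaks held it in a narrow window around the midpoint. The share over all peaks in such windows is not given here, so this does not set the genes apart. Of the 6 GGACT sites 4 were in peaks of both lists, and of the 156 DRACH sites 89 were in both, 39 in control alone and 28 in PTC alone.

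Other genes of the same pathways were mostly in both lists too. Of 77 further genes 58 had peaks in both, 5 in control alone and 1 in PTC alone, and for 13 no row was found. The 58 are 90.6% of the 64 genes with a peak, but the lists differed. The share was 100% of 17 p53 regulators with a peak and 96.3% of 27 p53 target genes. It was 76.5% of 17 genes of the Cdk and Rb axis and 66.7% of 3 genes grouped with the Cdk inhibitors. Over all genes with a peak in either list 79.2% were in both, 12.5% in control alone and 8.24% in PTC alone. The balance of the genes in 1 list depended on the peaks counted. With a fold of at least 4, 4 pathway genes were in control alone and 7 in PTC alone. At equal list length these were 4 and 3, and with a −log10 FDR of at least 5 they were 7 and 4. No share over all genes in 1 list only is available for these settings, so these counts have no baseline. Of the 58 genes 29 (50%) had more control peaks, against 41.6% of all genes in both lists. Equal numbers were held by 19 (32.8%), against 42.4%, and more PTC peaks by 10 (17.2%), against 16.0%.

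Regulators of p53 were listed in both conditions for 17 of 22 genes. The strongest were Crebbp, which encodes a histone acetyltransferase that also acetylates p53 (8 control and 6 PTC peaks, −log10 FDR 175 and 240), Bmi1 (1 peak in each list, 120 and 175) and Ep300, which encodes the related acetyltransferase (5 in each list, 77.1 and 143). Rows were not found for Chek2, Ppp1r13l, Trp63, Trp73 and Rpl11. Of 30 p53 target genes 26 were in both lists, led by Pml, a gene of nuclear bodies (7 control and 3 PTC peaks, 239 and 156), Phlda3, an inhibitor of Akt signalling (2 and 3, 94.5 and 86.9), and Aen, an apoptosis nuclease (7 and 5, 85.1 and 77.6). Perp was in control only with 2 weak peaks (2.50), and Bax, Eda2r and Plk3 were not found.

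Among 19 genes of the Cdk and Rb axis, the machinery that the inhibitors act on, 13 were in both lists. Ccnd2, which encodes the D-type cyclin that pairs with Cdk4 and Cdk6, was strongest (9 control and 5 PTC peaks, −log10 FDR 290 and 304), followed in control by Cdk6 (9 and 3, 63.1 and 28.0) and Fbxw7, a ubiquitin ligase subunit (5 in each list, 36.6 and 47.5). Rbl2, a relative of Rb1 named after its values were seen, equalled Fbxw7 in control and was above it and Cdk6 in PTC (5 and 3, 36.6 and 50.1). Cdk2 (5.04), E2f2 (6.99) and E2f4 (5.88) were in control only and Ccnd1 (2.26) in PTC only, with 3, 3, 2 and 1 peaks. Ccnd3 and Cks1b were not found. A last list grouped 6 further genes with the Cdk inhibitors, and not all of them encode one. Of these, Cdkn2b, the neighbour and relative of Cdkn2a, held 4 control peaks and 1 PTC peak (4.46 and 9.89). Cdkn2aip, whose protein binds Arf, held 2 and 6 (29.0 and 57.0), and Cdk5rap3 was in control only (3 peaks, 7.15). Cdkn1c, Cdkn3 and Cdk2ap1 were not found.

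**Figure D4:**
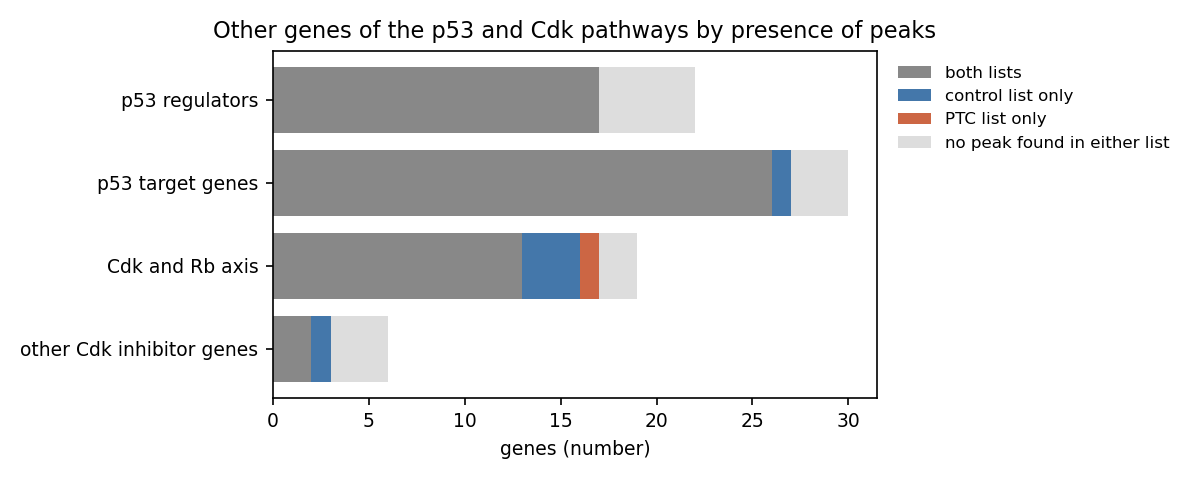
Number of genes of 4 pathway lists with peaks in both deposited lists, in the control list only, in the PTC list only, or with no row found. Most genes of the first 3 lists have peaks in both, and 5 genes are in control only and 1 in PTC only. These numbers are 4 and 7 when only peaks with a fold of at least 4 are counted, and 7 and 4 with a −log10 FDR of at least 5.

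Markers of T cells were listed, and so were markers of other blood cells. All 10 T cell markers tested, among them Cd3d, Cd3e, Cd3g and Lck, had peaks in both lists. So did 5 of 6 B cell markers and 6 of 7 myeloid markers, Cd79a and Itgam being the ones not found, and 0 of 4 hepatocyte markers. Every marker with a peak was thus in both lists, against 79.2% of all genes with a peak in either list. A peak list gives no level of these transcripts, and the part of other cells in the peaks described here was not tested. The authors' deposited table of totals gives 36.07% of control reads and 33.03% of PTC reads in peaks, but counts 19420 and 15855 peaks, fewer than the 29586 and 23368 of the lists, so these percentages may not refer to the lists described here. Depth per sample is unknown.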

How the data were processed

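m6A immunoprecipitates and inputs of 8 samples in 4 groups, assigned by title, stand behind 1 deposited peak list per condition. BWA 0.7.12, MACS2 2.1.0 and build GRCm39 are named per the submitters' processing notes. Caller settings and any pooling of samples are not given there. Whether MACS2 wrote the lists used here, with their joined exon blocks and edges on a 30 nt grid, was not tested. Per the file headers each peak has a p-value, a log10 p and log10 FDR (named here a score, since values run below the usual log range) and a fold enrichment, a ratio taken as immunoprecipitate over input, all deposited by the authors. The deposited summary gives the percent of reads in peaks and a number of peaks. FDR is shown as −log10.

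Of control peaks 99.8% lay inside their own gene in GENCODE M21 (GRCm38), and of PTC peaks 99.8%, so coordinates are read as GRCm38, from position 1, and sequences come from GENCODE M21 transcripts. Peaks were matched by gene symbol. Overlap means at least 1 bp of exon blocks on the same strand. Regions are those of the midpoint in any transcript, coding sequence first. Positions from the stop codon use the protein-coding transcript holding most peak bases. Motifs were searched in the joined exon blocks on the transcript strand. Percentiles give the share of a list with lower values. Intervals used scipy 1.17.1. The functions were tested on simulated data.

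The genes and lists were chosen with earlier results of these data known. Besides the 8 genes and Bmi1, the rule names, of each pathway list, genes in 1 list only, genes not found and the 3 strongest in control, and the Cdk inhibitor genes Cdkn1c and Cdkn2b. Alternatives were stricter FDR or fold, shorter lists, other overlap, region and motif rules.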

Additional observations from a re-analysis of the deposited data

How the results depend on the processing

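Under the alternatives 61 of 88 values moved by no more than their interval (shares) or 1.5 times (counts), and 27 moved by more. The 61 include every count matched by Ensembl gene identifier, all equal to the main setting, and the counts of Cdkn2a, which has no rows. These had little room to move, so 61 of 88 overstates how stable the other values were. No paired analysis was possible because the lists hold no values per sample, and for the same reason no sample could be left out. With only peaks of −log10 FDR 5 or more, 4 genes had peaks in both, all 4 with overlapping pairs; 9 PTC peaks remained, 3 of them with a midpoint in the 3' UTR, and pathway genes in PTC alone were 4 (control alone 7). Trp53 then had 0 control and 0 PTC peaks, Cdkn1a 1 and 0, and Cdkn2d 0 and 1. With a fold of at least 4 the genes in both lists were 4 and those with overlapping pairs 4, 1 gene had more control peaks, 7 control and 6 PTC peaks remained, and 100% of these PTC peaks were overlapped. Of the pathway genes 35 were then in both lists and 7 in PTC alone (control alone 4). With as many peaks as the summary table counts, 4 genes were in both lists and 4 had overlapping pairs. At equal list length 3 pathway genes were in PTC alone (control alone 4). Requiring 50% of each peak lowered the overlapped PTC share to 57.1%. In narrow windows around the midpoint GGACT was in 0 control and 0 PTC peaks. The share over all peaks in such windows is not given here, so it cannot be said whether this is usual. With DRACH in place of GGACT, over whole peaks, the counts were 18 and 14. Precision is limited by the number of peaks, and the depth behind each is unknown.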

Other observations

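Some regulators and targets of p53 in the fixed lists had unequal numbers of peaks; they were picked after their values were seen and have no replicate check. The damage kinase gene Atm held 9 control and 4 PTC peaks, the damage scaffold gene Trp53bp1 9 and 4, and Hipk2, a kinase of p53, 8 and 2. The p53 target genes Ccng1 (2 and 4) and Pmaip1 (1 and 3), and Cdkn2aip (2 and 6), had more PTC peaks. The single peaks of E2f5 in the lists did not overlap, and neither did the peaks of Pmaip1 and Rpl5. Of the 58 pathway genes in both lists 55 had an overlapping pair. Over all genes in both lists 94.7% had one, so a few such genes do not set the pathways apart.

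Peak edges followed a grid. For overlapping peaks with 1 exon block each, 86.9% of 26006 differences between control and PTC edges were within 1 nt of a multiple of 30 nt. Differences of 30 nt between peak ends, as at the start of the Trp53 peak, are therefore 1 step of that grid.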
